A study of Mus musculus with 12 samples.

Results

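The posterior HoxA genes examined here are Hoxa7, Hoxa9, Hoxa10, Hoxa11 and Hoxa13, 5 of the 56495 genes of the deposited table, taken by their gene symbols. They were chosen as relatives of the posterior HoxD genes that could stand in for lost HoxD expression. RNA sequencing was run on urogenital sinus (UGS) of mouse embryos at stage E18.5, shortly before birth, dissected away from the bladder with the proximal urethra left on, and in females with the vagina. The 12 libraries formed 4 groups of 3: mutant males, mutant females, wild type males and wild type females. Mutant here stands for the genotype Inv(Itga6-nsi)d11lac. The name denotes an inverted segment reaching from Itga6 to a point written nsi, on a chromosome that also carries d11lac. The labels used here describe neither nsi nor d11lac, nor whether the animals carried the inversion on 1 or both chromosomes. Whether replicates are different embryos is not given either, so the spread that the p-values rest on may be technical.

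Hox genes encode homeodomain transcription factors that give cells their position along the body axis. Mice carry them in the HoxA, HoxB, HoxC and HoxD clusters, and genes at the same place in different clusters, such as Hoxa13 and Hoxd13, are paralogs with similar proteins and partly overlapping roles. The posterior genes are used in the limbs and the urogenital tract: loss of Hoxa13 in mice disturbs the genital tubercle, the urogenital sinus and the digits, Hoxa10 and Hoxa11 act in the uterus and the male ducts, and Hoxa13 and Hoxd13 together are needed to divide the cloaca and to form the accessory sex glands. The mutant rearrangement lies on the chromosome of the HoxD cluster, while HoxA is on another chromosome.

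All 5 genes stand on chromosome 6 (mm39 positions), within one stretch and read from the reverse strand. Hoxa7 (ENSMUSG00000038236) spans 52191478 to 52198834, Hoxa9 (ENSMUSG00000038227) 52200080 to 52204350, Hoxa10 (ENSMUSG00000000938) 52208177 to 52217834, Hoxa11 (ENSMUSG00000038210) 52219086 to 52222790 and Hoxa13 (ENSMUSG00000038203) 52234674 to 52237788. The 250 bases before the RefSeq start of Hoxa9, the distal start of Hoxa10 and the starts of Hoxa11 and Hoxa13 are shown. In the results below the first 3 genes pass the threshold as higher in mutants over both sexes and Hoxa13 does not. No test compared Hoxa13 with them, and its fold change depends on mutant female 1. The sequences are RefSeq's, in GRCm38.p6 positions, and capitals mark each CG pair.
Hoxa9 (chr6:52227371-52227620, minus strand): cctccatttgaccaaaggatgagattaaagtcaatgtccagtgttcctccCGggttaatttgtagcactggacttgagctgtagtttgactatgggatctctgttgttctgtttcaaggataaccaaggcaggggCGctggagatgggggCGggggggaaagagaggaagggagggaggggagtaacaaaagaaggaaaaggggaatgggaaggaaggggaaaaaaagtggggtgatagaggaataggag
Hoxa10 (chr6:52240855-52241104, minus strand): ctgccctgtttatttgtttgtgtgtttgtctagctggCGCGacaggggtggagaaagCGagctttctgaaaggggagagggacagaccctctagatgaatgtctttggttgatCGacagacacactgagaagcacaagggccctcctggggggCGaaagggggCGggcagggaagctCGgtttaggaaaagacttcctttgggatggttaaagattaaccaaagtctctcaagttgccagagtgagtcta
Hoxa11 (chr6:52245811-52246060, minus strand): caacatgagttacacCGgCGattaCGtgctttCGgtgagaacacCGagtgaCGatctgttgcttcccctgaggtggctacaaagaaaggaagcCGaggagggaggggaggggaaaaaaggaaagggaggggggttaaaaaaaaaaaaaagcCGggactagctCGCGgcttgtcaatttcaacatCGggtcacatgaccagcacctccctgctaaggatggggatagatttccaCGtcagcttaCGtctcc
Hoxa13 (chr6:52260881-52261130, minus strand): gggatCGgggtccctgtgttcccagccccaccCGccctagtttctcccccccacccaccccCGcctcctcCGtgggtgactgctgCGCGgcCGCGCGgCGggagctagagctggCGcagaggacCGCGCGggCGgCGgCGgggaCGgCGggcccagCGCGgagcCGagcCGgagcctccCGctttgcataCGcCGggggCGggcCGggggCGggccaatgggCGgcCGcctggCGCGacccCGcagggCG
The Hoxa13 window is the richest in G and C, at 80% with 35 CG pairs, and 2.97% of the 32851 promoter windows in the RefSeq table hold at least as many pairs. The Hoxa9 window has 49.6% G and C with 3 CG pairs, the Hoxa10 window 51.6% with 7 and the Hoxa11 window 52% with 13, against a median of 52.4% and 6 over all windows. The motif CCAAT, searched on both strands, was found once in the Hoxa13 window and in none of the other 3 printed, and 33.8% of all windows hold it. The proximal start of Hoxa10 (chr6:52234940-52235189, not printed) lies between them, with 59.2% G and C, 20 CG pairs and 1 CCAAT, so these counts do not set Hoxa10 as a whole apart from Hoxa13. The letters TTTATG (10.8% of all windows), TTTACG (2.61%) and TGATTNAT (2.82%), searched the same way, were in none of the 4 printed. The Hoxa7 window, not printed, held 2 copies of TTTATG. The Hoxa11 window also lies over exons of Hoxa11os, a transcript read from the opposite strand. The Hoxa9 window lies inside the GENCODE M21 span of Hoxa9 itself, outside its exons. Its counts thus describe this start and do not set Hoxa9 as a whole apart from Hoxa13.

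Levels are given as scaled FPKM, a fragment count corrected for gene length and for the total of the library, with each library divided by its median ratio to the others. Because FPKM are per length, levels can be set side by side between genes. In wild type UGS the 5 genes formed an order with no overlap between neighbours over the 6 libraries: Hoxa13 at 22.9 to 29.2, Hoxa10 at 15.9 to 17.7, Hoxa11 at 8.84 to 12.2, Hoxa9 at 3.12 to 4.12 and Hoxa7 at 1.88 to 2.71 scaled FPKM. The more anterior genes Hoxa2 to Hoxa6 were near the bottom of the scale, with means over all 12 libraries of 0.211 to 0.519 and no value above 0.803. In mutant UGS the means kept this order, but Hoxa10 at 16.2 to 24.6 overlapped Hoxa11 at 12.8 to 17.2, and Hoxa13 at 11.6 to 35.1 overlapped both. The level thus stepped up along the cluster between Hoxa7 and Hoxa10, was lower at Hoxa11 and highest at Hoxa13 in wild type libraries.

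**Figure D1:**
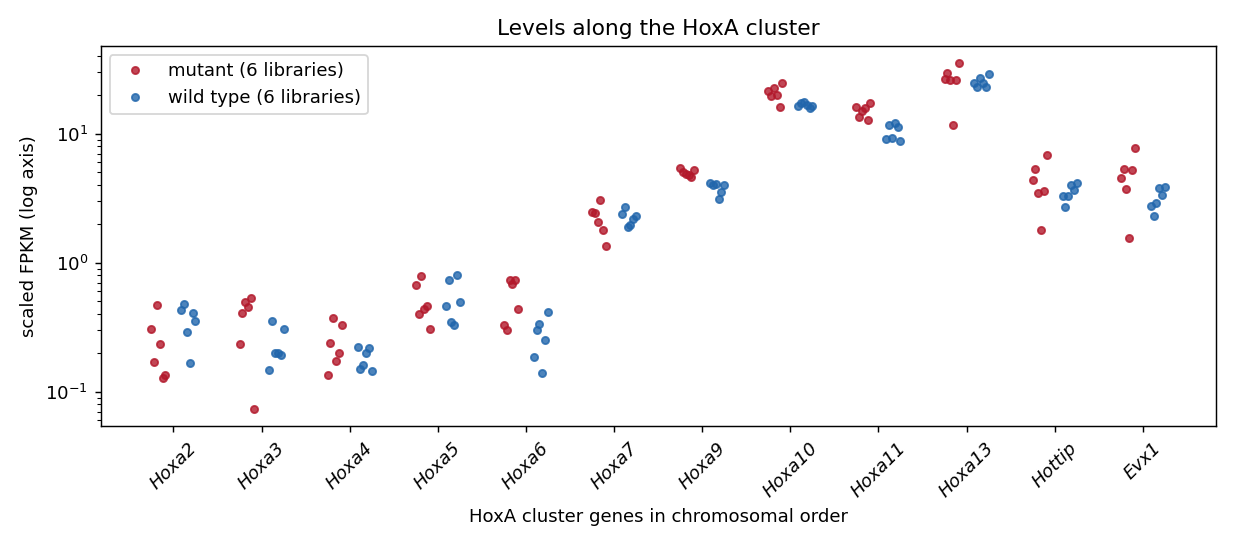
Levels of HoxA cluster genes, with Hottip and Evx1 beyond Hoxa13, in chromosomal order (x axis) as scaled FPKM on a log axis (y axis), each point being 1 library, with the 6 mutant libraries left of the 6 wild type libraries for each gene. Hoxa2 to Hoxa6 stay at or below 0.803 scaled FPKM in every library, while Hoxa13 reaches 22.9 to 29.2 in wild type.

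The tissue label was checked against marker genes. All 8 epithelial markers of the UGS (such as Shh and Krt5) and all 7 mesenchymal markers (such as Pdgfra and Srd5a2) passed the filter on low values, whereas the summed level of 4 kidney markers stayed at or below 0.0593 and that of 4 gonad and adrenal markers at or below 1.08 scaled FPKM; the kidney gene Umod was listed at 0 in all 12. Markers of other kinds were present. The sum of 4 urothelium markers, listed for the bladder, was 76.4 to 254 in mutant and 71.8 to 209.5 in wild type libraries. The bladder was removed but the proximal urethra was left on, and the source of this RNA was not tested. The sum of 5 blood markers was 2745 to 12060 in mutant and 699 to 12610 in wild type libraries. Intestine markers summed to 2.704 to 8.075 in mutant and 2.98 to 3.77 in wild type libraries, and smooth muscle markers to 854.5 to 1343 in mutant and 774 to 1166 in wild type libraries. The mutant libraries were the shallower ones, with a relative depth of 0.582 to 0.717, against 0.812 to 1 in wild type. The RNA Rn7sk took 12.2% to 14.9% of the FPKM sum in mutant males 1 and 3 and in wild type male 1 and was listed at 0 elsewhere. Mutant female 1 stood apart in its marker genes, with an epithelial sum of 517 scaled FPKM against 203 to 345 in the other mutant and 171 to 223 in the wild type libraries. Its Müllerian duct and vagina sum was 67.9, against 17.4 to 38.7 in the other mutants, 25.0 to 27.1 in wild type females and 12.1 to 13.8 in wild type males.

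Mutant UGS had more Hoxa9, Hoxa10 and Hoxa11 RNA than wild type UGS over both sexes, by 1.28-fold, 1.22-fold and 1.43-fold on the fitted scale, and none of the 5 genes was called lower. Hoxa7 and Hoxa13 were not called. A gene is called where the Benjamini-Hochberg adjusted p of the limma test, over 13904 genes reaching 1 FPKM in 3 libraries or more, is under 0.05; all 5 genes passed that filter. Over both sexes 3 of the 5 genes were called higher, and of all genes tested 40.6% were called, 18.9% higher and 21.6% lower in mutants; the median log2 fold change of the 5 was 0.29, against 0.00 over all genes. In females 2 of 5 were called higher, where 28% of all genes were called and 12.1% were higher. In males 1 of 5 was called higher, where 20.3% of all genes were called and 8.64% were higher. Beside these differences, 4 of the 6 skeletal muscle markers were called lower in mutants over both sexes (list median -0.61 on the log2 scale) and in males (-0.97), with sums of 347 to 523 scaled FPKM in mutant males and 328 to 430.2 in mutant females, against 534 to 754 in wild type males and 369.9 to 489.5 in wild type females. Of the 5 blood markers 1 was called higher over both sexes. Of the 5 Müllerian duct and vagina markers past the filter 3 were. None of the 4 bladder and 5 smooth muscle markers was called between genotypes. Of the 5 intestine markers only Lgr5 passed the filter and it was not called, so the others were not tested. The intestine sum was highest in mutant female 1, at 8.075 scaled FPKM. The part of these tissues in the HoxA values was not tested. These are bulk tissue values, so fewer cells of a type and less RNA per cell cannot be told apart.

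Hoxa11, which acts with its paralogs in the limb, kidney and reproductive ducts, showed the largest difference of the 5. It stood at 16.1, 13.5 and 14.98 scaled FPKM in mutant males and 15.7, 12.8 and 17.2 in mutant females, against 9.13, 11.7 and 9.25 in wild type males and 12.2, 11.3 and 8.84 in wild type females. Every mutant library was above every wild type library. How many of all genes separate the genotypes this way was not counted, here or for the genes below. Of all genes tested, 40.6% were called over both sexes. The log2 fold change was 0.52 (SE 0.10, limma adjusted p = 0.00232) over both sexes, 0.55 (SE 0.14, adjusted p = 0.0225) in males and 0.48 (SE 0.14, adjusted p = 0.0289) in females. Leaving out 1 library at a time moved the adjusted p to as much as 0.0891 in males and 0.112 in females, with 4 libraries in each sex whose absence ended the call; over both sexes it held each time. Hoxa11os, the antisense transcript that overlaps Hoxa11 (52221373 to 52226779), was called higher as well, with 27.7, 28.5 and 29.1 scaled FPKM in mutant males and 26.1, 24.9 and 35.6 in mutant females, against 16.6, 17.9 and 20.1 in wild type males and 25.0, 20.4 and 19.5 in wild type females. Its log2 fold change was 0.52 (limma adjusted p = 0.00155) over both sexes, where it also stayed called with FPKM as deposited (0.39), with FPKM sums (0.35), after a GC and length correction (0.36) and without the 3 libraries that hold Rn7sk (0.48). It was 0.64 (adjusted p = 0.00928) in males and 0.40 (adjusted p = 0.0471) in females. The library kit keeps strand, but the strand setting of the quantification was not stated, so Hoxa11 and Hoxa11os reads in their overlap cannot be told apart.

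Hoxa9, which acts with its paralogs in limb and vertebral patterning, stood at 5.43, 5.05 and 4.85 scaled FPKM in mutant males and 4.82, 4.58 and 5.25 in mutant females. Wild type males had 4.12, 3.98 and 4.08 and wild type females 3.12, 3.55 and 4.02. Here too every mutant library was above every wild type library. The log2 fold change was 0.35 (SE 0.07, limma adjusted p = 0.00209) over both sexes and 0.41 (SE 0.10, adjusted p = 0.0102) in females, and 0.30 in males, where the adjusted p of 0.0511 missed the threshold.

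Hoxa10, needed for the identity of the uterus and for testis descent in mice, stood at 21.5, 19.6 and 22.7 scaled FPKM in mutant males and 20.0, 16.2 and 24.6 in mutant females. Wild type males had 16.5, 17.2 and 17.7 and wild type females 16.7, 15.9 and 16.5. The male groups did not overlap, while mutant female 2 lay inside the wild type range. The log2 fold change was 0.29 (SE 0.09, limma adjusted p = 0.0188) over both sexes, 0.30 in males (adjusted p = 0.104) and 0.28 in females (adjusted p = 0.101).

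These 3 calls depend on how the libraries are put on 1 scale. With FPKM as deposited, where the median of all genes shifts by -0.11 on the log2 scale, the log2 fold changes over both sexes were 0.24 for Hoxa9 (limma adjusted p = 0.168), 0.17 for Hoxa10 (adjusted p = 0.332) and 0.39 for Hoxa11 (adjusted p = 0.0566), so no call remained. With each library divided by its FPKM sum, where that median is -0.15, Hoxa11 stayed called at 0.35 (adjusted p = 0.0295), and Hoxa9 at 0.20 (adjusted p = 0.0550) and Hoxa10 at 0.13 (adjusted p = 0.266) did not. Hoxa10 also lost its call after a correction for gene GC content and length (0.19, adjusted p = 0.176) and with no filter on low values (0.29, adjusted p = 0.103). Without the 3 libraries that hold Rn7sk, Hoxa9 stayed called (0.35, adjusted p = 0.0458), and Hoxa10 (0.22, adjusted p = 0.239) and Hoxa11 (0.42, adjusted p = 0.0740) did not. All of these fold changes kept their positive sign. The mutant libraries are also the shallower ones, and the part of depth in these values was not tested.

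**Figure D2:**
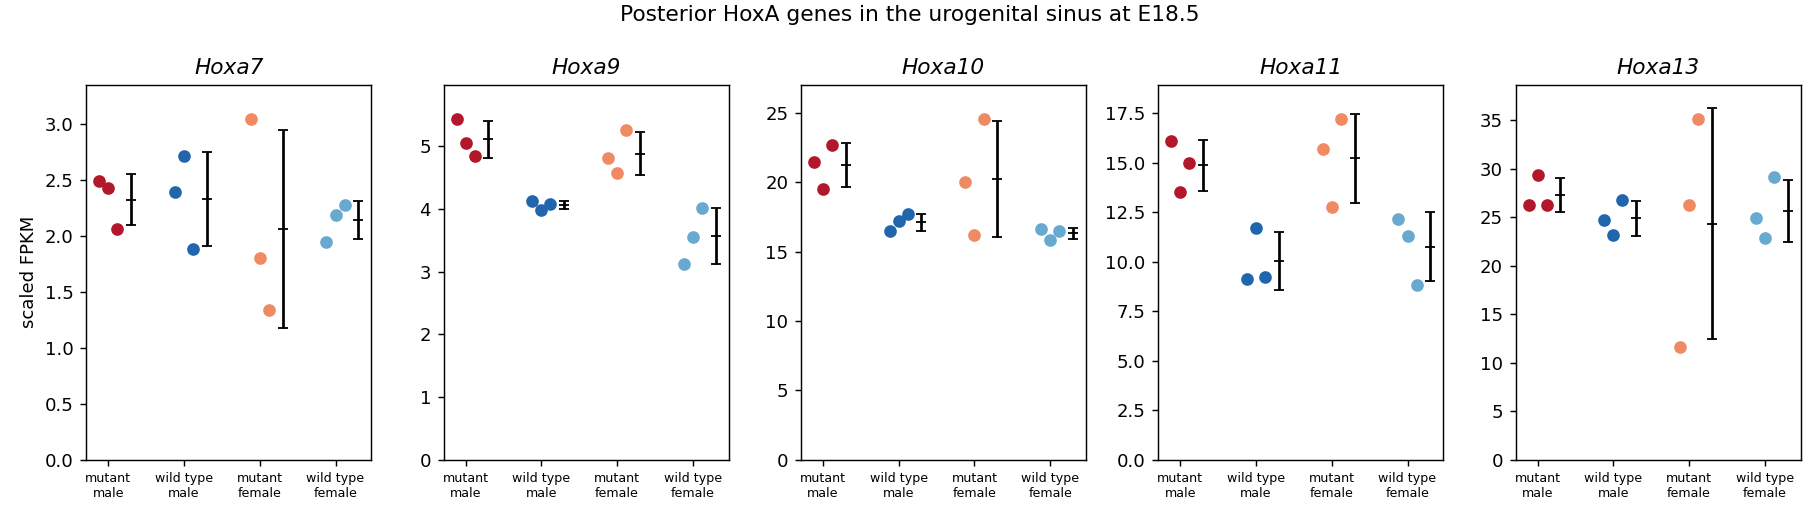
Scaled FPKM (y axis, from 0) of the 5 posterior HoxA genes in each library, with points for the 3 libraries of each group and a bar beside them for the mean ± SD. For Hoxa9 and Hoxa11 all 6 mutant points lie above all 6 wild type points, and for Hoxa13 the mutant females spread from 11.6 to 35.1.

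Hoxa7, the most anterior of the 5, works in the patterning of the vertebral column, and was the lowest here. It stood at 2.49, 2.43 and 2.06 scaled FPKM in mutant males and 3.05, 1.80 and 1.34 in mutant females, against 2.39, 2.71 and 1.88 in wild type males and 1.95, 2.19 and 2.28 in wild type females. The groups overlapped throughout. The log2 fold change over both sexes was -0.05, with a 95% interval of -0.37 to 0.28 (limma adjusted p = 0.829). The mutant females held both the highest and the lowest of the 12 values.

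Hoxa13, the last gene of the cluster and the one most tied to the genital tubercle and the urogenital sinus, was not called. It stood at 26.3, 29.4 and 26.3 scaled FPKM in mutant males and 11.6, 26.3 and 35.1 in mutant females, against 24.7, 23.2 and 26.8 in wild type males and 24.9, 22.9 and 29.2 in wild type females. Mutant female 1 was the lowest and mutant female 3 the highest of all libraries, and the coefficient of variation was 48.8% in mutant females, against 12.5% in wild type females, with 6.54% in mutant males, against 7.34% in wild type males. The log2 fold change over both sexes was -0.04, with a 95% interval of -0.49 to 0.42 (limma adjusted p = 0.904). In males it was 0.13 (adjusted p = 0.787) and in females -0.20 (SE 0.29, adjusted p = 0.635). Without mutant female 1 it was 0.25 in females (adjusted p = 0.180) and 0.19 over both sexes (adjusted p = 0.103), so the sign rests on that library.

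**Figure D3:**
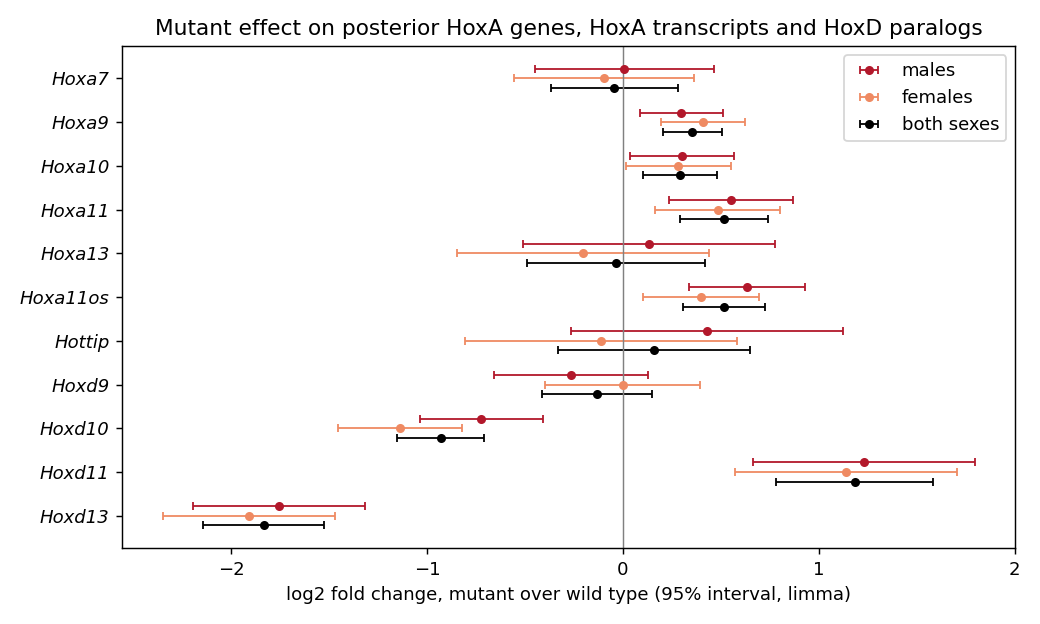
Log2 fold change of mutant over wild type (x axis) with its 95% interval from limma, for the 5 posterior HoxA genes, Hoxa11os, Hottip and 4 HoxD paralogs (y axis), for each sex and for the sexes together. The intervals of Hoxa9, Hoxa10 and Hoxa11 lie above 0 and those of Hoxa7 and Hoxa13 include it, while Hoxd10 and Hoxd13 lie below 0 and Hoxd11 above.

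The transcripts beyond Hoxa13 shared its spread. Hottip, a noncoding RNA known to act on the posterior HoxA genes, had 1.81 and 6.80 scaled FPKM in mutant females 1 and 3, which is 0.513 and 1.93 times its wild type mean, beside 0.460 and 1.39 times for Hoxa13. Evx1, the homeobox gene next to the cluster, stood at 0.495 and 2.47 times its wild type mean in the same libraries. Its antisense transcript Evx1os, picked after its values were seen, stood at 0.464 and 1.99 times. Over both sexes none of these was called: the log2 fold changes were 0.16 for Hottip (limma adjusted p = 0.598), 0.41 for Evx1 (adjusted p = 0.245) and 0.22 for Evx1os (adjusted p = 0.536). Of 10 other HoxA transcripts examined, 3 passed the filter (Hoxa11os, Hottip and Evx1), and Hoxa11os was the 1 called. Without mutant female 1 Evx1 was called too, at 0.70 (limma adjusted p = 0.000917). Over all genes 40.6% were called, and 46% without mutant female 1.

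Across all 12 libraries the gene whose log2 level was most like that of Hoxa13 was Bmp4, a BMP ligand made by urogenital mesenchyme that is on the list of described targets or effectors used below. Pearson's r was 0.975 and Spearman's rho 0.860, with r at 0.811 without mutant females 1 and 3, the libraries farthest from the median. Next came Phldb2, which anchors microtubules at the cell cortex (r = 0.967), and Chsy1, a chondroitin synthase (r = 0.959). For Hottip r was 0.876 and for Evx1 0.824, and without those 2 libraries 0.682 and 0.617. The libraries share tissue composition and depth with every gene, so these values are a description. Bmp4 was not called between genotypes, at 0.03 on the log2 scale (limma adjusted p = 0.919), with 33.5, 38.1 and 31.9 scaled FPKM in mutant males and 13.2, 29.8 and 49.6 in mutant females, against 27.2, 30.4 and 29.8 in wild type males and 29.0, 27.6 and 35.2 in wild type females.

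**Figure D4:**
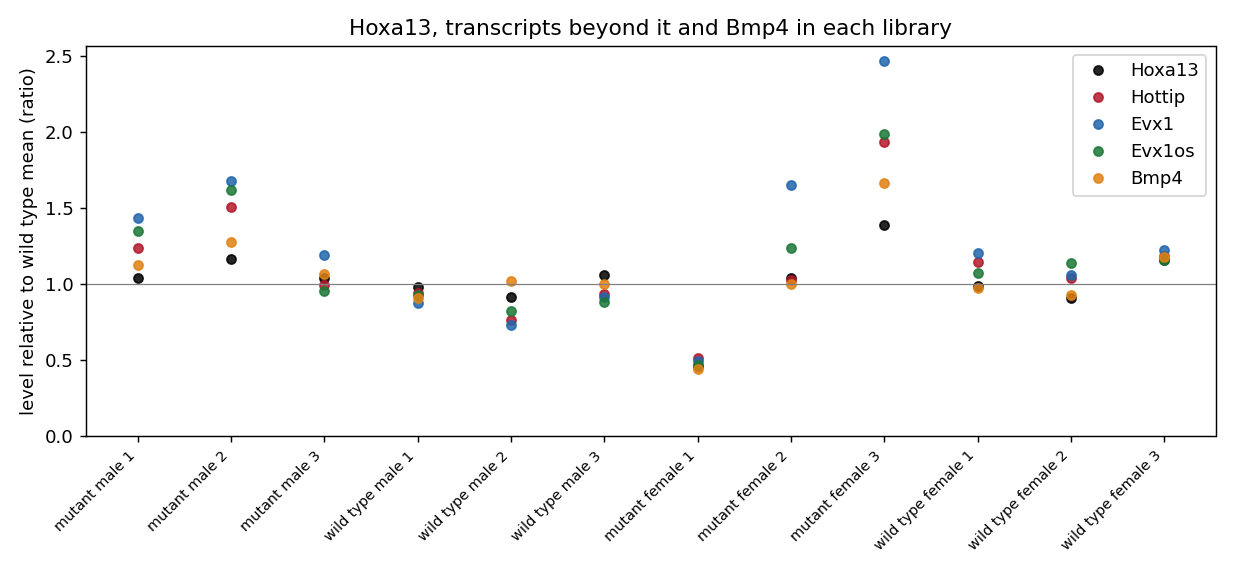
Level of Hoxa13, Hottip, Evx1, Evx1os and Bmp4 in each library (x axis) as a ratio to the gene's mean over the 6 wild type libraries (y axis, from 0), each point being 1 gene in 1 library. In mutant female 1 the 5 genes lie at 0.442 to 0.513, and in mutant female 3 at 1.39 to 2.47.

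The mesenchymal markers did not all follow the order of Hoxa13 in the mutant females. The receptor gene Pdgfra, a mesenchymal marker, had a level of 52.2, 142 and 178 scaled FPKM in the mutant females, in order of replicate 1, 2 and 3, against 127, 127 and 143 in wild type females. The collagen gene Col1a1, the most abundant of the 7, had 540.1, 974.8 and 873 in the mutant females, against 508, 598 and 574 in wild type females. Both were lowest in mutant female 1 among mutant females, but Pdgfra was highest in mutant female 3 and Col1a1 in mutant female 2; these examples were picked after their values were seen. The mesenchymal sum of 7 genes was 891 in mutant female 1, 1623 and 1506 in mutant females 2 and 3, and 1096 to 1201 in wild type females. With its epithelial sum of 517, mutant female 1 had the lowest mesenchymal sum and the highest epithelial sum of the 12 libraries. Over both sexes 4 of the 8 epithelial markers were called higher and none lower, and 0 of the 7 mesenchymal markers were called higher and 1 (Tbx18) lower, where 18.9% of all genes were called higher and 21.6% lower. The part of these markers in the HoxA values was not tested.

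With mutant female 1 included, Hoxa13 did not share the pattern of Hoxa10 and Hoxa11. The ratio of Hoxa10 to Hoxa13 was 1.72 in mutant female 1 and 0.564 to 0.865 in the other 11 libraries, and the ratio of Hoxa11 to Hoxa13 was 1.35, against 0.303 to 0.613. Over the 12 libraries Pearson's r was 0.797 between Hoxa10 and Hoxa11, 0.776 between Hoxa9 and Hoxa10 and 0.651 between Hoxa9 and Hoxa11. Hoxa13 had r of 0.0833 with Hoxa9, 0.135 with Hoxa10 and -0.128 with Hoxa11, and without mutant female 1 these were 0.594, 0.642 and 0.385. Hoxa7 and Hoxa13 had r of -0.695, which was -0.128 without the 2 libraries farthest from the median.

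The genes most like the other members were of other kinds. For Hoxa9 they were Mark4 (r = 0.974), Crtc2 (0.960) and Micos10 (0.958), for Hoxa10 Arid3a (0.926), Tfap2a (0.924) and Ulk1 (0.923), for Hoxa11 Zfp646 (0.956), Sf3b4 (0.953) and Gon4l (0.937), and for Hoxa7 Lyar (0.911), Pinx1 (0.907) and Nprl3 (0.896). Each r is Pearson's over the 12 libraries, a description over points that share their depth and genotype groups.

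To set the HoxA genes beside HoxD, Hoxa9, Hoxa10, Hoxa11 and Hoxa13 were each compared with their HoxD paralog in the same libraries. Not all of these HoxD genes were lower in mutants. Hoxd13, a digit and genital patterning gene, stood at 4.02, 4.06 and 6.23 scaled FPKM in mutant males and 3.15, 4.71 and 5.64 in mutant females, against 17.3, 15.1 and 18.8 in wild type males and 17.3, 16.1 and 20.5 in wild type females. Every mutant library was below every wild type library, a separation that was not counted over all genes. The change was -1.83 on the log2 scale over both sexes (limma adjusted p = 3.69e-05), and Hoxd11 was higher, at 1.18 (adjusted p = 0.000546). The log2 ratio of the paralogs changed in every pair, by an exact permutation test within sex. The test was two-sided over 400 arrangements, the smallest p being 0.005, and adjusted over the 4 pairs. A ratio moves with either gene, so it does not show by itself that the HoxA gene changed. The ratio of Hoxa13 to Hoxd13 was higher in mutants by 1.80 on the log2 scale (adjusted p = 0.01), that of Hoxa10 to Hoxd10 by 1.22 (adjusted p = 0.01) and that of Hoxa9 to Hoxd9 by 0.49 (adjusted p = 0.0267). The ratio of Hoxa11 to Hoxd11 was lower in mutants, at -0.67 (adjusted p = 0.03). After the GC and length correction the ratio of Hoxa11 to Hoxd11 was -1.09 (adjusted p = 0.00667) and that of Hoxa9 to Hoxd9 0.77 (adjusted p = 0.01), both over 1.5 times the uncorrected value. The ratio of Hoxa10 to Hoxd10 shrank to 0.94 and that of Hoxa13 to Hoxd13 to 1.60 (adjusted p = 0.00667 each).

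In group 13 Hoxa13 made up 84.2% ± 3.64 of the summed FPKM of both paralogs in mutants, against 59.1% ± 0.739 in wild type (SD, n = 6 each). The shares were 86.7%, 87.9% and 80.8% in mutant males and 78.7%, 84.8% and 86.2% in mutant females, against 58.8%, 60.6% and 58.8% in wild type males and 59.0%, 58.6% and 58.8% in wild type females. The wild type shares lay within 2 points of each other although the libraries' Hoxa13 levels differed, and no mutant share came near them. The sum of both genes was 32.1 ± 1.61 scaled FPKM in mutant males and 28.8 ± 13.1 in mutant females, against 42.0 ± 3.69 in wild type males and 43.6 ± 5.44 in wild type females (SD, n = 3 each). It was lower in mutants, at -0.54 on the log2 scale (exact permutation test within sex, adjusted p = 0.02), at -0.38 in males and -0.70 in females. Hoxa13 itself was not called in either sex. Leaving out wild type female 1, 2 or 3 moved the adjusted p of the sum to 0.0667, 0.06 and 0.0667, and without mutant female 1 the difference was -0.33 (adjusted p = 0.03).

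In group 11 both paralogs were higher in mutants. Hoxd11 stood at 6.12, 7.17 and 8.83 scaled FPKM in mutant males and 4.24, 9.01 and 10.8 in mutant females, against 2.58, 2.77 and 3.14 in wild type males and 3.30, 3.00 and 3.10 in wild type females; how the allele d11lac bears on Hoxd11 reads is not given in the labels. The summed FPKM was 22.8 ± 2.90 in mutants and 13.4 ± 1.57 in wild type (SD, n = 6 each), higher by 0.74 on the log2 scale (exact permutation test, adjusted p = 0.02). Hoxa11 made up 66.6% ± 7.57 of it in mutants and 77.5% ± 2.67 in wild type. The shares were 72.5%, 65.4% and 62.9% in mutant males and 78.7%, 58.7% and 61.4% in mutant females. They were 74.0% to 80.9% in wild type libraries, so mutant female 1 lay inside the wild type range. The ratio call did not hold when mutant female 2 or 3, mutant male 3, or wild type female 1 or 2 was left out, with adjusted p of 0.05 to 0.06.

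In group 10 Hoxd10 stood at 2.00, 2.04 and 2.73 scaled FPKM in mutant males and 1.87, 1.80 and 1.20 in mutant females, against 4.07, 3.74 and 4.26 in wild type males and 4.25, 3.94 and 4.18 in wild type females. Hoxa10 was the main transcript of the pair, with 91.4% ± 2.13 of the sum in mutants and 80.4% ± 0.912 in wild type. The sum was 22.7 ± 2.88 in mutants and 20.8 ± 0.705 in wild type (SD, n = 6 each), a log2 difference of 0.11 that was not called (exact permutation test, adjusted p = 0.19). Without mutant female 2 it was 0.18 and called (adjusted p = 0.0133).

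In group 9 Hoxd9 stood at 2.80, 2.60 and 2.18 scaled FPKM in mutant males and 2.10, 1.19 and 1.47 in mutant females, against 3.50, 3.36 and 2.59 in wild type males and 1.76, 1.72 and 1.23 in wild type females. Hoxd9 was not called between genotypes over both sexes, at -0.13 on the log2 scale (limma adjusted p = 0.428). After the GC and length correction mutant males had log2 levels of 1.60, 1.56 and 1.31 and wild type males 2.15, 2.03 and 1.80. Mutant females then had 1.17, 0.579 and 0.844 and wild type females 1.33, 1.26 and 0.942. With that correction 4 of the 6 listed HoxD genes were called lower over both sexes, against 3 without it. The sexes lay apart here, with wild type males above wild type females. Hoxa9 made up 71.4% ± 5.93 of the sum in mutants and 62.9% ± 8.53 in wild type. The sum was 7.05 ± 0.839 in mutants and 6.17 ± 1.18 in wild type (SD, n = 6 each), higher by 0.19 on the log2 scale (exact permutation test, adjusted p = 0.0267), and with FPKM as deposited this was 0.07 (adjusted p = 0.813). Leaving out mutant male 1 or 2, wild type female 1, 2 or 3, or wild type male 3 ended the call of the sum, with adjusted p of 0.06 to 0.08. The ratio call ended when mutant female 2 or 3, or wild type female 1 or 2, was left out.

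**Figure D5:**
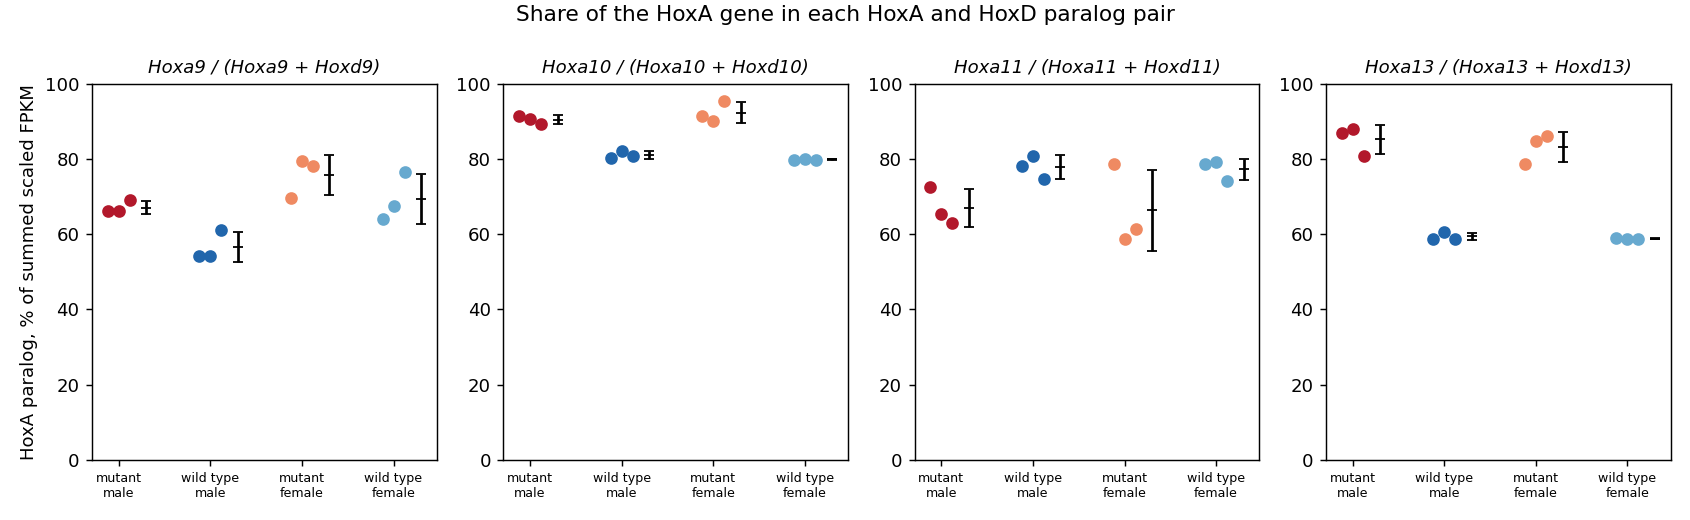
Share of the HoxA gene in the summed scaled FPKM of each HoxA and HoxD paralog pair (y axis, percent, 0 to 100), with a point for each library by group (x axis) and a bar for the mean ± SD. Hoxa13 takes 78.7% to 87.9% in mutants and 58.6% to 60.6% in wild type, and the Hoxa11 share is lower in mutants, at 66.6% against 77.5%.

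No HoxA gene was called between the sexes or for a mutant effect that differed between them. The difference of the mutant effect, males minus females, was 0.33 on the log2 scale for Hoxa13 with a 95% interval of -0.58 to 1.25 (limma adjusted p = 0.822), and for Hoxa7 0.10, Hoxa9 -0.11, Hoxa10 0.02 and Hoxa11 0.07 (adjusted p of 0.820 to 0.981). In that comparison 0% of all genes were called, while 1225 had an unadjusted p under 0.05. Between mutant males and mutant females the log2 differences of the 5 genes were -0.03 to 0.30, where 7.49% of all genes were called, 3.98% higher and 3.52% lower in males, and between wild type males and females -0.10 to 0.17, where 3.18% were called. The sampled tissue differs between the sexes, since female samples keep the vagina. Among the paralogs Hoxd9 was higher in males than in females in wild type (0.82 on the log2 scale, adjusted p = 0.0334), and Hoxa9 had 0.17 there (adjusted p = 0.372).

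Hox proteins bind DNA with partners of the TALE class, the Meis, Pbx and Pknox proteins, of which 8 genes were examined and all 8 passed the filter. Over both sexes 1 was called higher in mutants and none lower, with a list median of 0.00 on the log2 scale, where 40.6% of all genes were called. It was Meis3, at 9.08 ± 1.11 scaled FPKM in mutants and 7.66 ± 1.13 in wild type (SD, n = 6 each), a log2 fold change of 0.23 (limma adjusted p = 0.0487). Meis3 was not called with FPKM as deposited (0.11), with FPKM sums (0.07) or after the GC and length correction (0.00199), and without the libraries with Rn7sk none of the 8 was called. With FPKM sums Meis1 (-0.26, adjusted p = 0.00655) and Meis2 (-0.25, adjusted p = 0.0142) were called lower. After the GC and length correction Pbx3 was called higher (0.47, adjusted p = 0.00222). Meis1, a common partner of posterior Hox proteins, was lower in males than in females in mutants (-0.48, adjusted p = 0.00529) and in wild type (-0.42, adjusted p = 0.0146).

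Of 19 genes listed as described targets or effectors of posterior Hox proteins, 16 passed the filter, and 4 were called higher and 1 lower over both sexes, with a list median of 0.04. Over all genes tested 18.9% were called higher and 21.6% lower, so these counts do not set the list apart. Bmp7, a ligand of the same family as Bmp4, was at 9.04 ± 2.75 scaled FPKM in mutants and 6.11 ± 0.379 in wild type (SD, n = 6 each; log2 fold change 0.47, limma adjusted p = 0.0126). Efna4, an ephrin ligand, was higher by 0.38 (adjusted p = 0.00625), Six2, a transcription factor of nephron progenitors, by 0.54 (adjusted p = 0.0442), and Wnt7a, a Wnt ligand of Müllerian duct epithelium, by 0.67 (adjusted p = 0.0129). The mutant females had 22.7, 9.34 and 14.8 scaled FPKM of Wnt7a, against 8.50, 8.04 and 7.19 in wild type females, and at or below 0.454 in every male library, and it is also 1 of the 7 Müllerian duct and vagina markers, whose sum was highest in mutant female 1. Sostdc1, a secreted antagonist of BMP and Wnt signals, was at 3.50 ± 1.16 in mutants and 5.83 ± 1.5 in wild type (-0.69, adjusted p = 0.00331). Within each sex every mutant value of Sostdc1 was below every wild type value, which was not counted over all genes. With FPKM as deposited and with FPKM sums the list held 1 call higher (Wnt7a) and 1 lower (Sostdc1), after the GC and length correction Sostdc1 alone, and without the 3 libraries with Rn7sk none.

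Of 12 listed regulators of Hox clusters 9 passed the filter, and 3 were called higher and 2 lower over both sexes, with a list median of -0.04. The retinoic acid receptor genes Rara and Rarg were higher by 0.58 (limma adjusted p = 0.000433) and 0.42 (adjusted p = 0.00282), and Kmt2a, which encodes a histone methyltransferase that keeps Hox genes on, by 0.33 (adjusted p = 0.0383). Eed and Suz12, core subunits of the Polycomb complex that keeps Hox genes off, were lower, at -0.42 (adjusted p = 0.000749) and -0.56 (adjusted p = 0.000512). Suz12 was at 7.27 ± 0.993 scaled FPKM in mutants and 10.9 ± 0.841 in wild type, and Eed at 7.82 ± 0.641 in mutants and 10.6 ± 0.776 in wild type (SD, n = 6 each). For both Eed and Suz12 every mutant library lay below every wild type library, and how many of all genes do so was not counted. Ezh2, the catalytic subunit of that complex, was called lower with FPKM as deposited (-0.35, adjusted p = 0.0286) and with FPKM sums (-0.39, adjusted p = 0.0016), and Ctcf, which binds chromatin loop anchors, with FPKM sums (-0.24, adjusted p = 0.0224). Rara stayed called higher and Eed lower with FPKM as deposited, with FPKM sums, after the GC and length correction and without the libraries with Rn7sk. Suz12 missed the threshold after the correction (-0.22, adjusted p = 0.0501), Rarg missed it with both scalings and the correction (0.29, 0.25 and 0.16), and Kmt2a under each of the 4 (0.14 to 0.23) and without mutant female 1 (0.33, adjusted p = 0.0509). The share of these lists called is to be read against the 40.6% of all genes called in the same comparison.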

How the data were processed

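Single-end reads of ribosomal-RNA-depleted total RNA (RIN above 9.5), in strand-specific libraries per the labels' protocols, were processed by the authors with STAR 2.7.10a, bedtools 2.30.0, Cufflinks 2.2.1 and cutadapt 4.1 per the submitters' processing notes, which name the builds mm39 and mm10 without a role. The deposited values are FPKM per gene, per the file headers. Positions are given as mm39, since 2.74% of gene ends matched GENCODE M21 on GRCm38; the annotation, masking and strand setting are not given in the sources used here. FPKM hold no read totals, so depth is known only in relative terms, from the value of 1 read among genes under 0.05 FPKM, and no counting interval was computed.

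Libraries were divided by median ratios over 11897 genes that reached 1 FPKM in every library (divisors 0.748 to 1.131). Log2(scaled FPKM + 0.5) values of 13904 genes were fitted with limma 3.58.1 in R 4.3.3, with 4 group means, an intensity trend and two-sided moderated tests adjusted by Benjamini-Hochberg; fold changes on this scale understate low genes. Paralog ratios and sums used exact permutation within sex. The fit was tested on simulated data. GC content and length were known for 98.8% of the genes tested. Genes most like a member were the 3 with the highest Pearson r, leaving out unnamed gene models, pseudogenes and small RNAs; the named genes are otherwise the members, the listed genes called and the HoxD paralogs; 2 listed genes are not reported here. No pair of libraries held identical values. Alternatives were other pseudocounts, filters and scalings, no intensity trend, a replicate block, a GC and length correction, only the groups compared, each library left out and, chosen after seeing the data, leaving out the 3 libraries with Rn7sk and leaving out mutant female 1. The genes examined and the lists were chosen with earlier results of these data known.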

Additional observations from a re-analysis of the deposited data

How the results depend on the processing

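Over both sexes the count of posterior HoxA genes called was 3, and it was 0 with FPKM as deposited, 1 with FPKM sums, 1 without the 3 libraries with Rn7sk, 2 with no filter, with the filter at 5 FPKM and after the GC and length correction (with the replicate block too), and 3 with each library left out, with other pseudocounts, with no intensity trend and with the replicate block. Over both sexes Hoxa7 and Hoxa13 were called under none of these settings. In females the count of 2 became 1 with no filter, with a filter at 5 FPKM, after the GC and length correction (with the replicate block too) and without the Rn7sk libraries, 0 with FPKM as deposited, with FPKM sums and with only the groups compared, and 1 to 3 with each library left out. In males the count of 1 became 2 with a pseudocount of 1 and with no intensity trend, 3 with only the groups compared, 0 with no filter, FPKM as deposited, FPKM sums, the GC and length correction (with the replicate block too) and without the Rn7sk libraries, and 0 to 1 with each library left out. The filter at 5 FPKM left Hoxa7 and Hoxa9 untested. Over all genes, 5639 were called over both sexes, against 3424 with FPKM as deposited (3.97% of genes higher), 5441 with FPKM sums (5.93% higher), 2387 after the GC and length correction and 2740 without the Rn7sk libraries. In females 3895 genes were called, against 2295 with no filter, 1666 with FPKM as deposited, 1077 after the correction and 2400 with only the groups compared. In males 2820 were called, against 1336 with no filter, 1350 with FPKM as deposited, 503 after the correction and 62 without the Rn7sk libraries. Between the sexes 442 genes were called in wild type and 1042 in mutants, against 254 and 401 with FPKM as deposited, 365 and 1932 with FPKM sums, 208 and 365 with no filter, 1233 and 209 with only the groups compared and 104 and 46 without the Rn7sk libraries.

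Values that turned their sign were in results not called. With FPKM as deposited they were -0.12 for Hoxa7 and -0.0211 for Hoxa13 in males, -0.037 for the Hoxa10 sex difference of the mutant effect, 0.0347 for Hoxa13 between wild type sexes and -0.0125 for the sum of Hoxa10 and Hoxd10. With FPKM sums they were -0.0782 for Hoxa7 in males, 0.0146 for the Hoxa9 sex difference of the mutant effect and 0.14 for Hoxa11 between mutant sexes. After the GC and length correction, with or without the block, they were -0.0378 for Hoxa7 in males and 0.0042 for Hoxa11 between mutant sexes. Without the Rn7sk libraries they were 0.0131 for Hoxa13 over both sexes, -0.12 for the sex difference of the mutant effect of Hoxa10 and of Hoxa11, and -0.027 for Hoxa10 between mutant sexes. With each library left out, Hoxa7 ran from -0.36 to 0.12 in females, -0.11 to 0.10 in males, -0.18 to 0.0649 over both sexes, -0.11 to 0.37 for the sex difference of the effect, -0.0206 to 0.46 between mutant sexes and -0.0062 to 0.21 between wild type sexes. Hoxa13 ran from -0.53 to 0.25 in females, -0.20 to 0.19 over both sexes, -0.12 to 0.66 for the difference of the effect, -0.15 to 0.62 between mutant sexes and -0.11 to 0.0573 between wild type sexes. Hoxa10 ran from -0.13 to 0.16 and Hoxa11 from -0.0496 to 0.20 for the difference of the effect, and from -0.0622 to 0.23 and -0.14 to 0.0613 between mutant sexes.

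For the paralog pairs, the sum of Hoxa9 and Hoxd9 lost its call with FPKM as deposited (0.0716) and after the GC and length correction (0.0908). Without the Rn7sk libraries calls were lost by the ratio of pair 9 (0.43) and of pair 11 (-0.72) and by the sums of pairs 9 (0.21), 11 (0.66) and 13 (-0.51), where fewer samples leave 60 arrangements. With each library left out the ratios ran from 0.41 to 0.59 for pair 9, 1.07 to 1.33 for pair 10, -0.87 to -0.55 for pair 11 and 1.72 to 1.92 for pair 13, and the sums from 0.16 to 0.23 for pair 9, 0.0516 to 0.18 for pair 10, 0.67 to 0.79 for pair 11 and -0.69 to -0.33 for pair 13. Deviations from the group means had r of -0.0681 to 0.0159 in females and -0.0410 to 0.167 in males between same-numbered mutant and wild type libraries. Between differently numbered ones r was -0.0639 to 0.0708 in females and -0.23 to 0.136 in males. With 3 libraries per group these values cannot decide whether the numbers pair the samples. With the replicate block 5770 genes were called over both sexes, and the counts of HoxA genes called stayed at 3, 2 and 1. The ratio of Hoxa11 to Hoxd11 with that block was -0.67 (exact sign-flip test, adjusted p = 0.0625). The cause of these changes was not tested.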
